A study of Mus musculus with 18 samples.

Results

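The genes that carry thyroid hormone across membranes or hold it in plasma, cerebrospinal fluid and cytosol were followed through the hypothalamus, pituitary and thyroid of mice with a mutated thyroid hormone receptor β. They were taken by name and number 7 of the 24027 gene symbols found once in each of the 3 deposited tables. The 7 are Slc16a10 (MCT10), Slco1c1 (OATP1C1), Slc7a5 (LAT1), Slc7a8 (LAT2), Slc3a2 (4F2hc), Ttr (transthyretin) and Crym (μ-crystallin).

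RNA-Seq was made from 3 WT mice (numbers 1, 2 and 43) and 3 K146Q mice (numbers 60, 62 and 83), giving 18 libraries in 6 groups of 3. All were untreated males of 3 months, with the strain labelled C57BL/Ntac. K146Q mice are homozygous for a whole-body knock-in that puts glutamine in place of the sumoylated lysine K146 of THRB in every isoform and every cell. Because the change is a point mutation, the level of Thrb could not check the genotype labels, and tissue labels were checked against defining markers.

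Thyroid hormone does not cross cell membranes freely and depends on carriers. MCT10 moves aromatic amino acids and both iodothyronines T3 and T4, OATP1C1 favours T4 and marks the blood-brain barrier of rodents, and the light chains LAT1 and LAT2 reach the cell surface bound to the heavy chain 4F2hc, exchanging large neutral amino acids and some iodothyronines. Transthyretin carries T4 in plasma and is the main protein made by the choroid plexus, and μ-crystallin binds T3 inside the cell.

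The libraries held 14902330 to 21230050 reads, and levels are given in CPM (reads scaled by the total of each library) on the scale of the authors' normalization, on which 3 reads are worth 0.133 to 0.19 CPM. Thyroglobulin, the precursor of thyroid hormone, stood at 83869 to 357296 CPM in the thyroid libraries and at 120 to 170 CPM in all 12 others, or 0.0548% to 0.0777% of the mean thyroid level. The TSH β subunit Tshb stood at 235 to 8183 CPM in pituitary libraries and at 35.9 CPM or less elsewhere. A gene was tested in a tissue if it reached 0.5 CPM in at least 3 libraries, with limma on log2(CPM + 0.5), so that fold changes of weakly expressed genes are understated. A difference was called at a Benjamini-Hochberg adjusted p under 0.05 over all genes tested.

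In WT mice each gene had its own order of tissues. To compare genes with each other, levels were divided by exon length. Ttr led in hypothalamus with 321 ± 524 CPM per kilobase (SD, n = 3), followed by Slc3a2 with 41.8 ± 1.62, Slc7a5 with 22.8 ± 0.953, Slc7a8 with 18.7 ± 0.335 and Slco1c1 with 12.9 ± 2.93. The lead of Ttr rests on mouse 2 alone, with 926 CPM per kilobase, and it stood below Slc3a2 and Slc7a5 in the other WT mice (18.1 CPM per kilobase in the lowest). Slc3a2 was the highest of the 7 in WT pituitary (36.2 ± 2.80 CPM per kilobase) and in WT thyroid (73.6 ± 19.5 CPM per kilobase). Slco1c1 was the lowest in both, with 0.0322 ± 0.0350 and 0.0187 ± 0.0184 CPM per kilobase.

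The WT tissues were compared in a fit of all 18 libraries over 17140 genes, in which the 3 comparisons share groups. Of the 7 members, 4 differed between pituitary and hypothalamus, where 73% of all genes did. Between thyroid and pituitary 4 of 7 differed (75.6% of all genes), and between thyroid and hypothalamus 6 of 7 (81.9% of all genes).

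**Figure D1:**
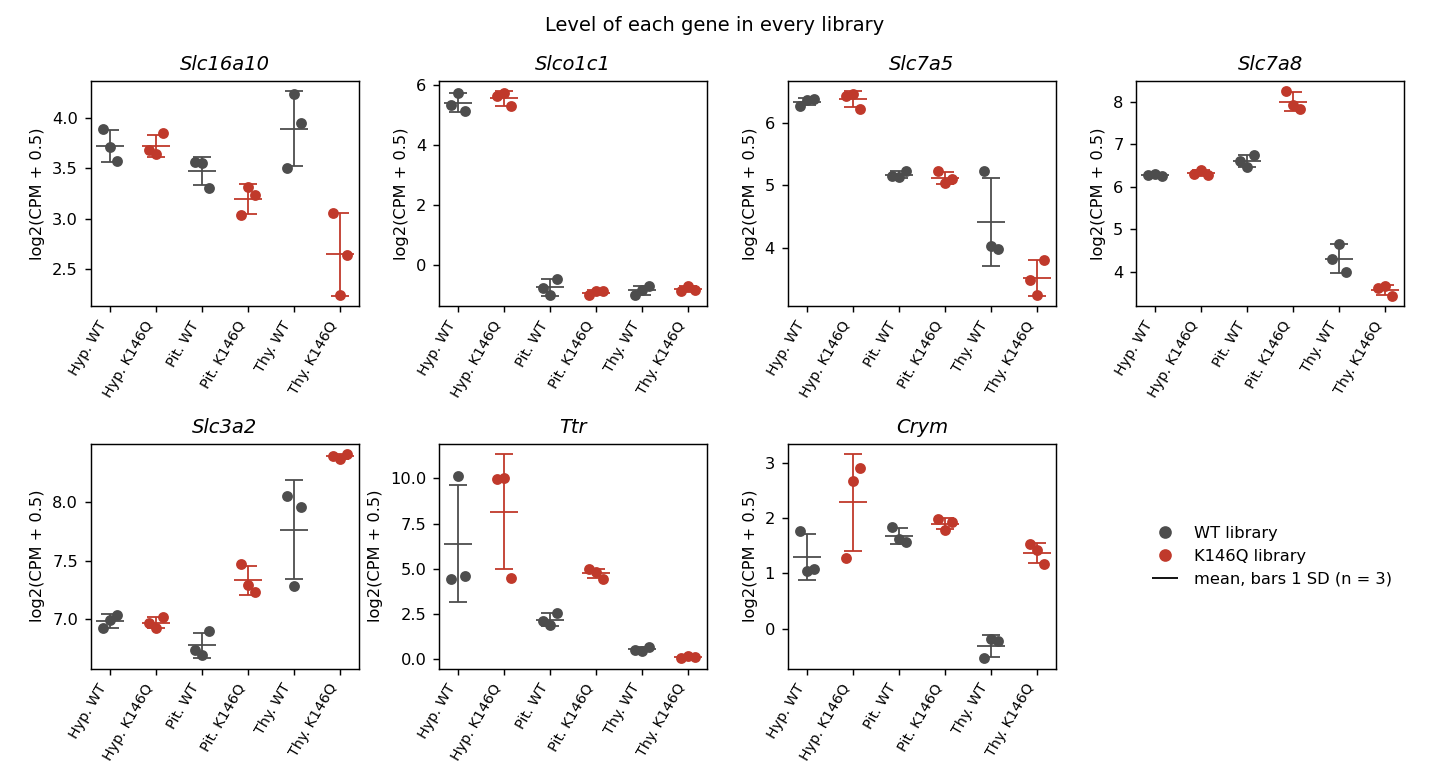
Level of each gene, as log2(CPM + 0.5), in all 18 libraries by tissue and genotype (dark, WT; red, K146Q); points are libraries, horizontal lines the group means and bars 1 SD (n = 3). Slco1c1 was near 0 CPM outside the hypothalamus, Ttr split the hypothalamus libraries of both genotypes, and all K146Q pituitaries stood above all WT pituitaries for Slc7a8, Slc3a2 and Ttr.

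Among the carriers that act alone, Slc16a10 (chr10:40033532-40142258, minus strand, GRCm38) was the most even. WT means were 14.6 ± 3.75 CPM in thyroid, 12.7 ± 1.45 in hypothalamus and 10.6 ± 1.06 in pituitary (SD, n = 3 each), and no neighbours in that order differed (adjusted p = 0.421 for thyroid against hypothalamus and 0.248 for pituitary against hypothalamus). The thyroid-pituitary difference of 0.42 (log2, SE 0.19) had an adjusted p of 0.0557.

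Slco1c1 (chr6:141524368-141570177, plus strand) was high in one tissue. WT hypothalamus libraries gave 39.4, 52.8 and 34.2 CPM in mice 1, 2 and 43, from 589 to 914 reads. WT pituitary libraries gave 2, 0 and 4 reads and WT thyroid libraries 0, 1 and 2 reads, at most 0.228 CPM in any of them, and the K146Q libraries of these tissues had 0 to 2 reads. The fitted differences of -6.13 (pituitary) and -6.23 (thyroid) from hypothalamus on the log2 scale depend on the 0.5 CPM added and are no measure of the true ratio. Levels in pituitary and thyroid were at most 0.514% of the hypothalamus mean, and whether they come from reads carried over between libraries was not tested.

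The light chains were both lowest in the thyroid. Slc7a5 (chr8:121881150-121907694, minus strand) had means of 80.3 ± 3.35 CPM in WT hypothalamus, 35.5 ± 1.22 in WT pituitary and 22.6 ± 12.4 in WT thyroid, and all steps of this order were called. The step from pituitary to thyroid (-0.76, SE 0.23, adjusted p = 0.00600) lost its call without mouse 2 (-0.59, adjusted p = 0.0729) or mouse 43 (-0.51, adjusted p = 0.102). The WT thyroid of mouse 1 stood at 36.9 CPM and the others at 15.8 and 15.2. Slc7a8 (chr14:54722209-54781946, minus strand) had means of 97.2 ± 9.19 CPM in WT pituitary, 76.6 ± 1.37 in hypothalamus and 19.7 ± 4.77 in thyroid. Its thyroid level was lower than the pituitary level by 2.30 on the log2 scale (SE 0.13, adjusted p = 5.82e-11), and the small difference between pituitary and hypothalamus (0.34, SE 0.13, adjusted p = 0.0316) was lost without mouse 1 (0.34, adjusted p = 0.111), 43 (0.26, adjusted p = 0.112) or 62 (0.34, adjusted p = 0.0503), with median-of-ratios rescaling (0.27, adjusted p = 0.0815) and with the 9 WT libraries only (0.34, adjusted p = 0.0563).

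The heavy chain ran the other way. Slc3a2 (chr19:8706882-8723369, minus strand) was highest in WT thyroid at 223 ± 59.0 CPM, above hypothalamus (126 ± 4.89) by 0.78 (log2, SE 0.14, adjusted p = 4.77e-05) and above pituitary (109 ± 8.45) by 0.99 (SE 0.14, adjusted p = 4.27e-06). Hypothalamus and pituitary did not differ beyond their spread (-0.21, 95% interval -0.50 to 0.079, adjusted p = 0.178). Per kilobase, Slc3a2 was 1.83 ± 0.0167 times Slc7a5 in WT hypothalamus, 3.59 ± 0.151 times in pituitary and 12.9 ± 5.48 times in thyroid. The thyroid thus had by far the most heavy chain RNA for each unit of LAT1 RNA, with 8.36 to 19.0 in its 3 WT libraries against 3.47 to 3.76 in the pituitary.

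**Figure D2:**
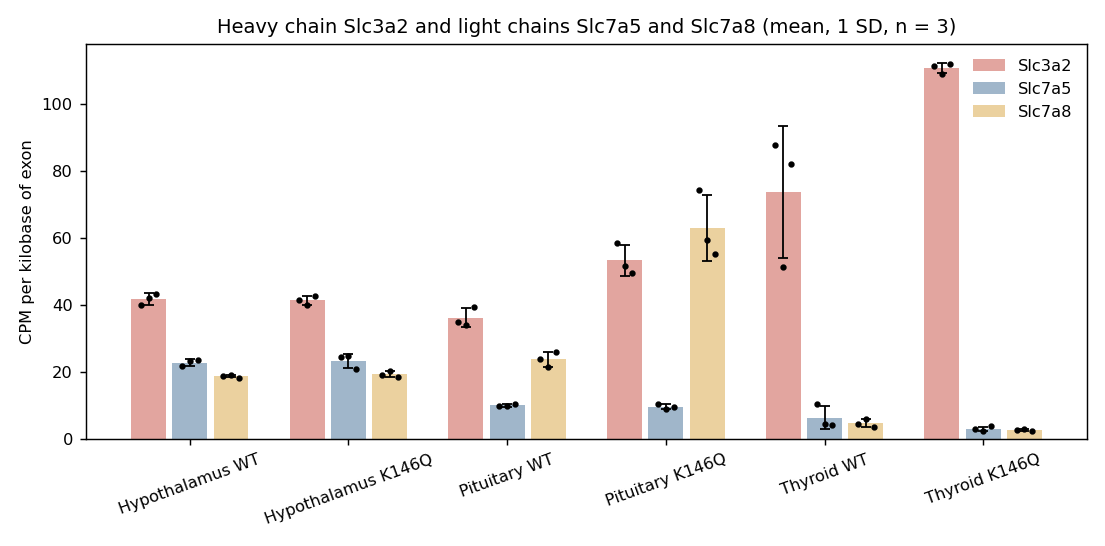
CPM per kilobase of exon for the heavy chain Slc3a2 and the light chains Slc7a5 and Slc7a8 in each group; bars are means, whiskers 1 SD, points the 3 libraries. In the K146Q pituitary Slc7a8 (63.1) stood above Slc3a2 (53.4), and in the thyroid both light chains were far below Slc3a2 in both genotypes.

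Of the binding proteins, Ttr was highest in hypothalamus, but its level there was set by single libraries (21.4 to 23.5 CPM in some and 1006 to 1098 CPM in others, as described with the genotypes). The WT difference between pituitary and hypothalamus of -4.19 (log2, SE 1.29, adjusted p = 0.00771) was -2.17 without mouse 2 (adjusted p = 0.134). WT pituitary held 3.83, 3.20 and 5.47 CPM and WT thyroid 0.947, 0.886 and 1.14 CPM in mice 1, 2 and 43, with no overlap. In the shared fit, whose spread for Ttr comes mainly from hypothalamus, this pituitary-thyroid difference was not called (-1.62, SE 1.29, adjusted p = 0.265).

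Crym (chr7:120186380-120202111, minus strand) was low throughout. Its WT means were 2.70 ± 0.328 CPM in pituitary, 2.04 ± 0.769 in hypothalamus and 0.310 ± 0.105 in thyroid. The 3 thyroid values rest on 3, 6 and 6 reads. Pituitary and hypothalamus did not differ beyond their spread (0.37, 95% interval -0.28 to 1.02, adjusted p = 0.290), and thyroid was below pituitary by 1.98 on the log2 scale (SE 0.31, adjusted p = 1.62e-05).

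In the hypothalamus no member passed the test between genotypes. None of the 7 was called, against 0% of all 15737 genes in limma, with an unadjusted p under 0.05 for 1 of the 7 (Crym) and 644 genes in all; edgeR and DESeq2 on recovered reads also called none of the 7, and DESeq2 called 9 genes in all. No member separated the genotypes, which 9.14% of all genes tested did. The median log2 difference was 0.053 over the members and -0.0011 over all genes.

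The carriers were tightly bounded here, as the libraries of this tissue lay close together. Slc3a2 stood at 121, 127 and 131 CPM in the WT mice (1, 2 and 43, in that order) and at 125, 121 and 129 CPM in the K146Q mice (60, 62 and 83). The 95% interval of its log2 difference was -0.12 to 0.085. For Slc7a8 the interval was -0.054 to 0.16, for Slc7a5 -0.11 to 0.18 and for Slc16a10 -0.23 to 0.23. All of these exclude a 2-fold change in either direction, whereas the wider interval of Crym (0.15 to 1.82) does not.

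Crym was 2.92, 1.56 and 1.62 CPM in WT and 1.93, 5.85 and 6.99 CPM in K146Q hypothalamus. Mice 62 and 83 were above all WT mice and mouse 60 was among them, and the difference of 0.98 (log2, SE 0.37) had an adjusted p of 0.998 (exact permutation p = 0.2, two-sided).

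Ttr fell into high and low libraries that cross the genotypes. WT mice 1, 2 and 43 had 21.4, 1098 and 23.5 CPM, and K146Q mice 60, 62 and 83 had 1006, 1029 and 21.7 CPM. WT mouse 2 and K146Q mice 60 and 62 were thus the high ones, from 16660 to 20561 reads, and each genotype held both kinds. The genotype difference was 1.77 with a 95% interval from -1.90 to 5.44 (log2, adjusted p = 0.998).

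Markers of the choroid plexus, the secretory epithelium that hangs in the ventricles beside the hypothalamus, were high in the same libraries. Of 16 markers, 14 had WT mouse 2 and K146Q mice 60 and 62 as their 3 highest hypothalamus libraries, the exceptions being Calml4 and Prlr; 7.28% of all 15737 genes tested had this pattern. Summed over the list, WT mice 1, 2 and 43 had 334, 1043 and 308 CPM, and K146Q mice 60, 62 and 83 had 845, 1014 and 314 CPM. Folr1, the folate receptor of this epithelium, was 0.895 to 0.986 CPM in the libraries with little Ttr and 6.34 to 8.84 CPM in the others. Kcnj13, a potassium channel, was 0.239 to 0.645 CPM against 6.70 to 7.46 CPM.

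Slco1c1 and Slc7a8 had the same 3 highest libraries, though by small steps. Slco1c1 was 52.8 CPM in WT mouse 2 and 48.3 and 52.8 in K146Q mice 60 and 62, against 39.4, 34.2 and 38.2 in the other 3. Slc7a8 ranged only from 75.1 to 83.6 CPM over all 6. In bulk tissue, more cells of a type and more RNA per cell cannot be told apart. The part of choroid plexus tissue in these differences was not tested; with the summed markers as a covariate, an alternative chosen after seeing the data, the genotype difference of Ttr was 0.29 and no member was called.

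**Figure D3:**
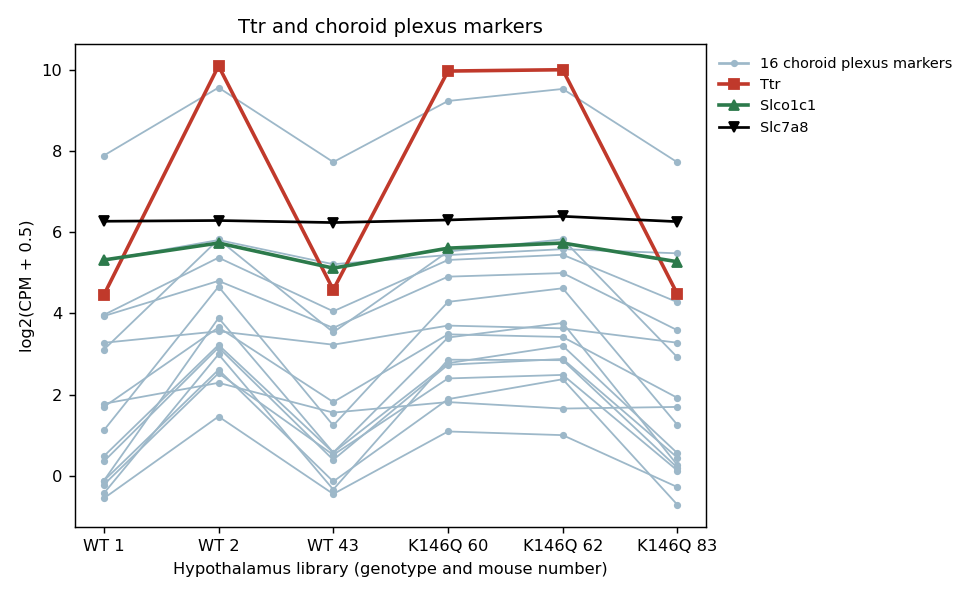
Ttr, Slco1c1, Slc7a8 and 16 choroid plexus markers as log2(CPM + 0.5) in the 6 hypothalamus libraries, named by genotype and mouse number; lines only join the values of one gene. Ttr was 1006 to 1098 CPM in WT 2, K146Q 60 and K146Q 62 and 21.4 to 23.5 CPM in the other 3, and 14 of the 16 markers peaked in the same libraries.

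In the pituitary, 3 carriers or binding proteins rose in K146Q mice: Ttr, Slc7a8 and Slc3a2. These are 3 of 6 members tested, all higher, where 9.84% of 15566 genes were called, 6.34% higher and 3.5% lower. The same 3 separated the genotypes completely, as did 30.9% of all genes tested. The median log2 difference was 0.39 over the tested members and -0.0089 over all genes. Slco1c1 was below the filter. The exact permutation test of 3 libraries against 3 gave p = 0.1 for each, the smallest it can give.

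LAT2 showed the larger rise of the amino acid exchanger chains. Slc7a8 was 97.3, 88.0 and 106 CPM in WT mice 1, 2 and 43 and 303, 243 and 226 CPM in K146Q mice 60, 62 and 83. The lowest K146Q library was more than 2 times the highest WT library, and the means differed 2.65-fold (log2 1.39, SE 0.11, adjusted p = 1.33e-04). Slc3a2 was 106, 103 and 119 CPM in WT and 177, 156 and 150 CPM in K146Q mice. The groups did not overlap, with a 1.47-fold ratio of means (log2 0.56, SE 0.087, adjusted p = 0.00389).

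LAT1 was not called. Slc7a5 was 35.0, 34.5 and 36.9 CPM in WT and 36.8, 32.1 and 33.9 CPM in K146Q mice, with overlapping groups and a 95% interval of -0.24 to 0.14 (log2, adjusted p = 0.756). The ratio of LAT2 to LAT1 RNA per kilobase was 2.39, 2.19 and 2.49 in the WT libraries and 7.09, 6.53 and 5.76 in the K146Q libraries. Slc3a2 per kilobase was 1.52 ± 0.0546 times Slc7a8 in WT and 0.852 ± 0.0541 times in K146Q pituitary, so that the light chain RNA exceeded the heavy chain RNA only in the mutant among the 6 groups. The 6 light chains known to pair with 4F2hc form a list drawn up with these values known. Slc7a8 was the 1 that rose, and the other 5 (Slc7a5, Slc7a6, Slc7a7, Slc7a10 and Slc7a11) did not pass the test. Of all genes tested in pituitary, 9.84% were called.

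The sequences before the RefSeq start sites (GRCm38.p6, without exons of the GENCODE basic set) are shown for the pair that rose together in pituitary and for Slc16a10, which fell in thyroid, with the GC box GGGCGG on either strand in capitals; its choice followed a reading of the sequences. RefSeq entries matched 4 of the 7 members (also Slco1c1, but not Slc7a5, Ttr and Crym), and after trimming the windows were 206 to 250 bases long.
Slc7a8, chr14:54781931-54782136, minus strand: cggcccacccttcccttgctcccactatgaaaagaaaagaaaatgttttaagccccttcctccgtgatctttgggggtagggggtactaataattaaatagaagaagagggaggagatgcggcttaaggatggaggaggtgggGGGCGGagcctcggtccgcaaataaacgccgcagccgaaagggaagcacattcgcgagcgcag
Slc3a2, chr19:8713898-8714147, minus strand: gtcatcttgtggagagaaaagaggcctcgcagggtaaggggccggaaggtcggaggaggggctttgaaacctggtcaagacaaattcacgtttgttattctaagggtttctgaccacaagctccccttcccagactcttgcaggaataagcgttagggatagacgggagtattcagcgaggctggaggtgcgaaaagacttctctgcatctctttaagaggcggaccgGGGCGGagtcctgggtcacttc
Slc16a10, chr10:40142256-40142504, minus strand: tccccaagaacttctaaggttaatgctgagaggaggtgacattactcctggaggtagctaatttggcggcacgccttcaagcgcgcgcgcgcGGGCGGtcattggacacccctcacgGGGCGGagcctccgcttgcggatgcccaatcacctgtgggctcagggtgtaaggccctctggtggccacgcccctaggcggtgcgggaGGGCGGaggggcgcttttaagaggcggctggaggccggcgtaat

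Slc7a8 and Slc3a2 held 1 GC box each and Slc16a10 3, a motif present in 32.7% of 32851 promoter windows of 250 bases. The thyroid hormone response half-site AGGTCA (14% of windows), the cyclic AMP element TGACGTCA (1.55%) and the amino acid response core TGATGCAA (0.791%) were in none of these stretches nor in that of Slco1c1, on either strand. The last 16 bases of the Slc7a8 stretch and the last 3 of the Slc16a10 stretch lie inside the gene bounds given above. The Slc3a2 window lies before the RefSeq start, which is downstream of the first exon in GENCODE, so other starts of this gene are not covered.

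Transthyretin had the largest fold difference of the members in pituitary. Ttr was 3.83, 3.20 and 5.47 CPM in WT mice 1, 2 and 43 and 30.9, 27.7 and 21.6 CPM in K146Q mice 60, 62 and 83, from 56 to 96 and 431 to 598 reads. All K146Q libraries were several times above all WT libraries, with a 6.41-fold ratio of means (log2 2.56, SE 0.19, adjusted p = 9.30e-05). In the fit of all 18 libraries, where the hypothalamus split widens its spread, the same difference had an adjusted p of 0.239. The summed choroid plexus markers were 273 to 349 CPM in WT and 253 to 309 CPM in K146Q pituitary, with 0 of 13 tested higher and 1 lower (Slc4a5, -1.20, adjusted p = 0.00914). Single markers went both ways. Of the 16, the 3 markers Kcnj13, Calml4 and Cldn2 were higher in every K146Q library than in any WT library and the 2 markers Sostdc1 and Slc4a5 lower, where 30.9% of all genes tested separated the genotypes. Kcnj13 was 0.0570 to 0.0890 CPM in WT and 0.102 to 0.774 CPM in K146Q pituitary, too low for it to be tested, and Cldn2 was 4.18 to 5.61 and 6.35 to 7.15 CPM. The part of choroid plexus tissue in the pituitary Ttr level was not tested.

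Other cell markers differed between the genotypes as well, in both directions, in a tissue where 9.84% of all genes tested were called. Of 6 thyrotroph and gonadotroph markers 3 were higher (Tshb, Trhr and Cga). The gonadotroph markers Fshb (0.19, adjusted p = 0.456), Lhb (-0.0083, adjusted p = 0.973) and Gnrhr (-0.24, adjusted p = 0.319) were not called. Summed, the 6 stood at 5020 to 5766 CPM in WT and 23408 to 30374 CPM in K146Q libraries, most of it from Cga. The summed immune markers stood at 47.0 to 58.3 CPM in WT and 79.3 to 137 CPM in K146Q libraries, with 3 of 5 tested higher. The summed somatotroph and lactotroph markers stood at 117070 to 243948 CPM in WT and 69621 to 84225 CPM in K146Q libraries. Most of this sum was Gh, which was not called (log2 -0.97, adjusted p = 0.0734). Of these 5 markers 3 were lower (Ghsr, Prl and Ghrhr), and 2 of 10 endothelial markers were higher. Whether Ttr, Slc7a8 and Slc3a2 rose within cells of these types was not tested.

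The remaining pituitary members were not called. Slc16a10 was 11.3, 11.2 and 9.40 CPM in WT and 7.69, 9.44 and 8.93 CPM in K146Q mice, lower on average but with an overlap (log2 -0.28, SE 0.13, 95% interval -0.57 to 0.016, adjusted p = 0.224). Crym was 3.07, 2.57 and 2.45 CPM in WT and 3.46, 2.96 and 3.31 CPM in K146Q mice (log2 0.23, 95% interval -0.12 to 0.58, adjusted p = 0.404).

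**Figure D4:**
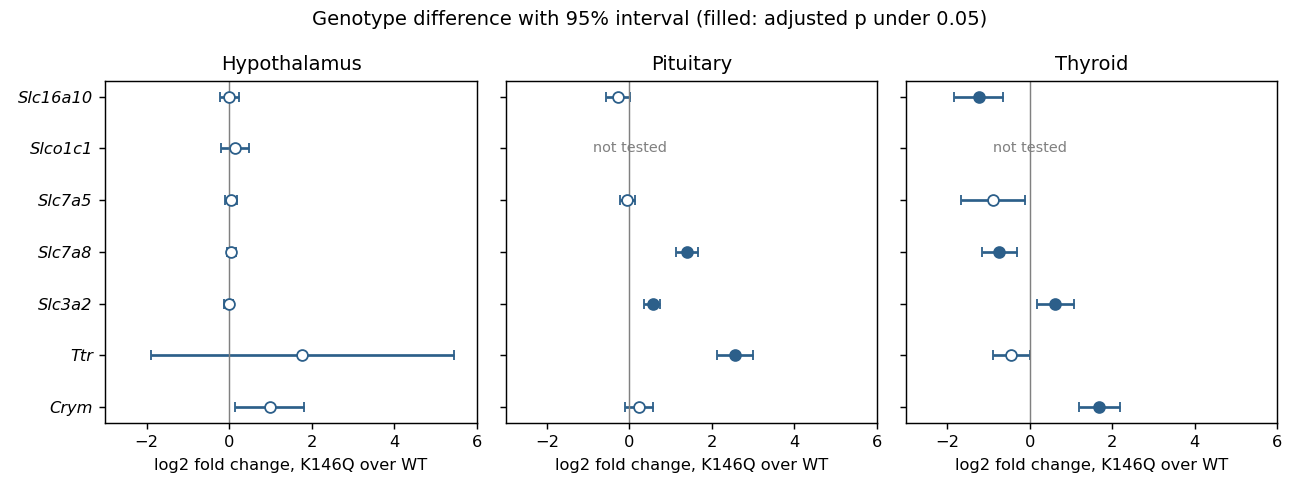
Log2 fold change of K146Q over WT with its 95% interval for each member in the 3 tissues (limma; filled points have an adjusted p under 0.05; Slco1c1 was below the filter in 2 tissues). Slc7a8 lies at 1.39 in pituitary and -0.74 in thyroid, and Slc3a2 lies above 0 in both.

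In the thyroid, Crym and Slc3a2 rose while Slc16a10 and Slc7a8 fell in K146Q mice. These 4 of 6 tested members, 2 in each direction, stand against 37.7% of 15177 genes called, 19.7% higher and 18.1% lower, so called genes were common in this tissue. Crym was tested only because of its K146Q level. All 6 tested members separated the genotypes, as did 52.4% of all genes tested, and exact permutation gave p = 0.1 for each. The median log2 difference was -0.59 over the tested members and -0.025 over all genes.

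MCT10 fell. Slc16a10 was 10.8, 18.3 and 14.9 CPM in WT mice 1, 2 and 43 and 7.83, 4.23 and 5.74 CPM in K146Q mice 60, 62 and 83. The highest K146Q library was below the lowest WT library, and the WT mean was 2.47 times the K146Q mean (log2 -1.24, SE 0.26, adjusted p = 0.00772). The call held under all 17 alternatives.

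The summed markers of parathyroid and C cells, which lie in or on the thyroid, moved with it. WT mice 1, 2 and 43 had 5612, 8479 and 6721 CPM. K146Q mice 60, 62 and 83 had 1881, 689 and 790 CPM, with 4 of 5 markers lower. The remaining marker, Calcb, was higher (log2 2.57, adjusted p = 5.96e-04) and was tested only because of the K146Q libraries. Parathyroid hormone (Pth) was 3240, 6012 and 3917 CPM in WT and 1489, 490 and 576 CPM in K146Q libraries. Summed fat markers stood at 700 to 775 CPM in WT and 97.9 to 194 CPM in K146Q thyroids, with 6 of 6 lower. Sums over the skeletal muscle list overlapped between genotypes. By thyroid library they were 362 (WT 1), 4520 (WT 2), 6704 (WT 43), 3857 (K146Q 60), 929 (K146Q 62) and 783 (K146Q 83), all as CPM. None of its 6 genes was called. WT 1 was the lowest WT thyroid and K146Q 60 the highest K146Q thyroid for this list, as for Slc16a10. The remaining libraries of each genotype ranked the other way round. The part of muscle, parathyroid, C cells and fat in the fall of Slc16a10 and of the other members was not tested.

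LAT2 fell while the heavy chain rose. Slc7a8 was 19.0, 24.7 and 15.3 CPM in WT and 11.7, 12.2 and 10.3 CPM in K146Q mice. The groups did not overlap, and the WT mean was 1.72 times the K146Q mean (log2 -0.74, SE 0.18, adjusted p = 0.0149), a call that all 17 alternatives kept. Slc7a5 was 36.9, 15.8 and 15.2 CPM in WT and 10.7, 8.99 and 13.5 CPM in K146Q mice. WT mouse 1 was far above the rest, the groups came close without overlapping, and the difference was not called (log2 -0.90, SE 0.33, adjusted p = 0.0682); it passed in 4 of 17 alternatives, among them DESeq2 on recovered reads (-1.02, adjusted p = 0.00738) and without mouse 43 (-1.12, adjusted p = 0.0441).

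The WT mouse 1 thyroid also held the most Ddit3 (75.3 CPM, against 13.2 to 35.5 in the others) and Trib3 (30.9 against 7.28 to 19.6). These are genes of the amino acid stress response that induces Slc7a5 in many cells, named after their values were seen. Summed over the 17 listed genes of this response, the library had 1464 CPM, against 803 to 1192 in the other thyroids. Single genes went both ways, and WT mouse 43 had more Chac1 (11.4 against 9.54 CPM), Sesn2 (64.8 against 49.1) and Cebpb (88.4 against 69.7). The level of the pituitary gene Tshb in the WT mouse 1 thyroid was also the highest, at 35.9 CPM against 1.88 to 5.69 in the other thyroids. The part of all these genes in its Slc7a5 level was not tested.

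Slc3a2 was 265, 155 and 248 CPM in WT mice 1, 2 and 43 and 336, 329 and 338 CPM in K146Q mice. The K146Q libraries lay within a narrow band above all WT libraries, of which mouse 2 was the lowest, and the means differed 1.5-fold (log2 0.62, SE 0.19, adjusted p = 0.0356). Of the 4 calls, only this one was lost under an alternative in which the gene was tested. Crym was tested in 13 alternatives, against 17 for the others, and passed the main filter only through its K146Q libraries. The Slc3a2 call was lost without mouse 60 (0.62, adjusted p = 0.0846), 62 (0.64, adjusted p = 0.0955) or 83 (0.62, adjusted p = 0.0882), with quantile normalization (0.52, adjusted p = 0.0515) and without a variance trend (0.62, adjusted p = 0.0572). The summed proliferation markers were 127 to 180 CPM in WT and 315 to 380 CPM in K146Q thyroids, with 10 of 10 higher. The summed immune markers were 346, 173 and 303 CPM in WT mice 1, 2 and 43, with mouse 2 the lowest as for Slc3a2, and 472 to 588 CPM in K146Q mice, with 3 of 5 tested higher. The part of these cells in the Slc3a2 level was not tested. Thyroglobulin took 293439 to 357296 CPM of the WT thyroid libraries and 83869 to 130421 CPM of the K146Q ones, and its part in the scale of this tissue was not tested beyond these alternatives.

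Per kilobase, Slc3a2 was 8.36, 11.4 and 19.0 times Slc7a5 in the WT thyroids and 36.7, 42.5 and 29.2 times in the K146Q thyroids. Over Slc7a8 the ratio was 18.8, 8.47 and 21.9 in WT and 38.7, 36.5 and 44.3 in K146Q thyroids. These ratios are within a library and do not depend on its scaling, and the genotypes did not overlap in either. Of the 6 known partners of the heavy chain, Slc7a6 (0.42, adjusted p = 0.0123) and Slc7a7 (0.88, adjusted p = 0.0110), the y+LAT exchangers of cationic amino acids, rose, Slc7a8 fell, and Slc7a5, Slc7a10 and Slc7a11 did not pass. Slc7a6 and Slc7a7 were named after their values were seen. Of all genes tested in thyroid, 37.7% were called.

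The binding proteins went apart. Crym was 0.189, 0.380 and 0.361 CPM in WT mice 1, 2 and 43, from 3, 6 and 6 reads, and 2.38, 2.17 and 1.76 CPM in K146Q mice 60, 62 and 83, from 48, 37 and 30 reads. Every K146Q thyroid was well above every WT thyroid, with a 6.79-fold ratio of means (log2 1.69, SE 0.21, adjusted p = 8.97e-04). Crym passed the filter in thyroid only through the K146Q libraries, so a difference was needed for it to be tested at all, and without any one of them it was not tested. All K146Q thyroid levels of Crym were below those of the pituitary libraries (2.45 to 3.46 CPM over both genotypes).

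Ttr was 0.947, 0.886 and 1.14 CPM in WT and 0.545, 0.646 and 0.586 CPM in K146Q thyroid, from 10 to 19 reads a library. The groups did not overlap, and the difference was not called (log2 -0.45, SE 0.19, adjusted p = 0.106) but passed without a variance trend (adjusted p = 0.0171). These levels are 0.102% to 0.214% of the mean hypothalamus level, and thyroglobulin stood at 0.0548% to 0.0777% of its thyroid level in the libraries of the other tissues. The part of reads carried over between libraries in the thyroid Ttr level was not tested.

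The genotype differences were then compared between tissues in the 18-library fit. Between pituitary and hypothalamus 1 of 7 members differed (3.24% of 17140 genes), between thyroid and pituitary 3 (33.8%) and between thyroid and hypothalamus 4 (30.8%). Slc7a8 differed in all 3 of these comparisons, being higher in every K146Q pituitary and lower in every K146Q thyroid than in any WT library of that tissue.

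Other carriers, listed beside the members, were read first in pituitary, where 9.84% of all genes tested were called. Of 8 tested organic anion and bile acid carriers Slco2b1, which transports steroid sulfates and T4, rose (0.96, adjusted p = 0.00943) and none fell. None of 12 amino acid and monocarboxylate carriers passed limma (4 of them had an unadjusted p under 0.05). Among 3 tested plasma carriers and partners, Rbp4, the retinol carrier that travels bound to transthyretin, rose (1.53, adjusted p = 0.00152), and Serpina7, the thyroxine-binding globulin, fell (-0.77, adjusted p = 0.0364). Rbp4 was 48.7 to 72.0 CPM in the K146Q pituitaries and at most 27.6 CPM in the WT ones, so that, like Ttr, it stood higher in all 3 mutants. Of 17 amino acid response genes, a set in which Slc7a5 and Slc3a2 are often counted, 2 rose (Nupr1, 1.77, adjusted p = 2.77e-04; Vldlr, 0.45, adjusted p = 0.00743) and 1 fell (Atf5, -0.36, adjusted p = 0.0223).

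The same lists were read in thyroid, where 37.7% of all genes tested were called, 19.7% higher and 18.1% lower. Of 7 organic anion and bile acid carriers Slco1a5 rose (1.56, adjusted p = 0.00280), while Slco2b1 (-1.22, adjusted p = 1.20e-04) and Slco3a1 (-0.68, adjusted p = 0.0190) fell. Slco1a5 was 0.316, 0.190 and 0.421 CPM in WT and 2.48, 1.29 and 1.99 CPM in K146Q thyroids, so that, like Crym, it passed the filter only through the K146Q libraries. Of 12 amino acid and monocarboxylate carriers 2 rose and 4 fell, the falls being Slc16a1 (MCT1, -1.86, adjusted p = 1.38e-04), Slc16a7 (MCT2, -1.83, adjusted p = 0.00141), Slc43a2 (LAT4, -1.76, adjusted p = 1.38e-04) and Slc7a2 (CAT2, -1.10, adjusted p = 0.00289). Slc43a2, a uniporter of large neutral amino acids, was 679, 600 and 665 CPM in WT and 157, 216 and 207 CPM in K146Q thyroids, with no overlap. Stra6, the retinol receptor that takes up Rbp4 cargo, rose (2.95, adjusted p = 0.00196), as did Apob (1.57, adjusted p = 0.00336), and Rbp4 fell (-1.15, adjusted p = 0.0147). Apob had at most 0.0633 CPM in WT and 0.793 to 1.64 CPM in K146Q thyroids and was likewise tested only because of the K146Q libraries. Of 17 amino acid response genes 1 rose and 7 fell, among them Chac1 (-1.53, adjusted p = 0.00627) and Asns (-1.26, adjusted p = 4.57e-04).

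**Figure D5:**
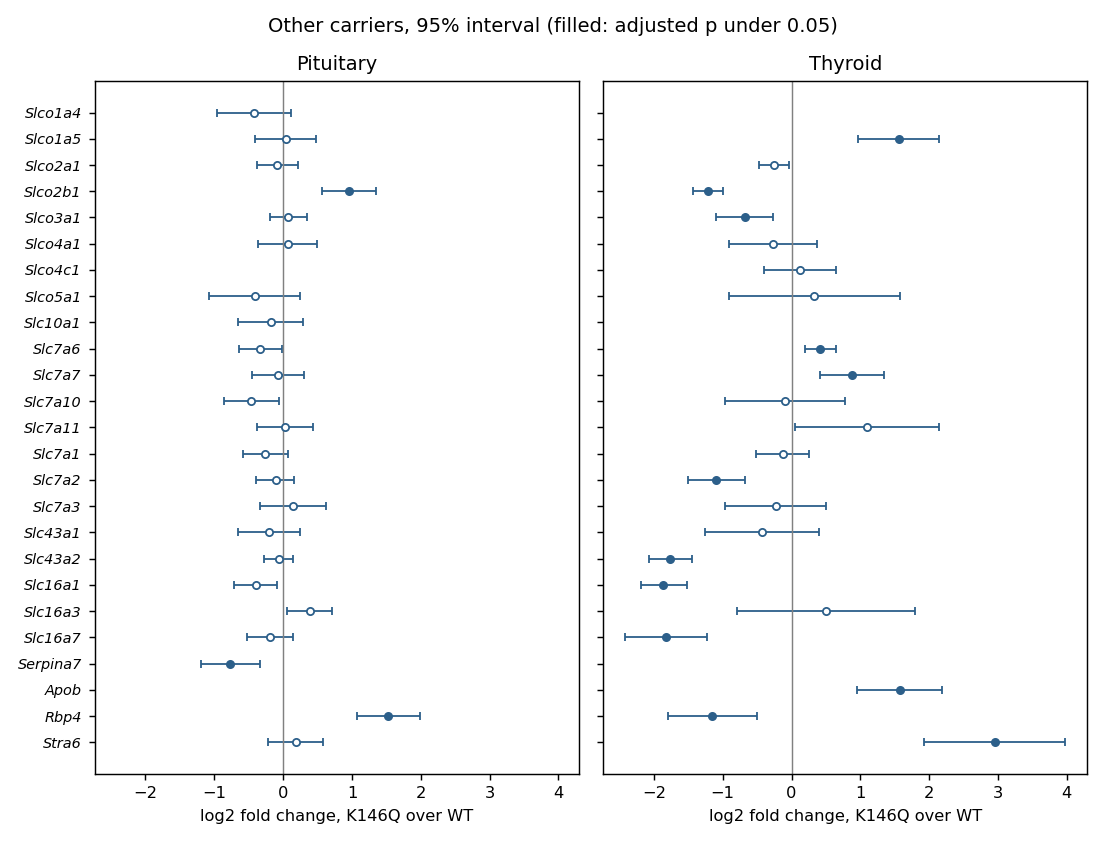
Log2 fold change of K146Q over WT with 95% intervals for the other carriers and plasma partners that passed the filter in pituitary or thyroid (limma; filled points have an adjusted p under 0.05; a missing point was not tested). Slco2b1 and Rbp4 lie above 0 in pituitary (0.96 and 1.53) and below 0 in thyroid (-1.22 and -1.15).

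The genes whose level over the 18 libraries ran most like each member are given as a description, since the points share tissue and library. Slco1c1 ran with AI854517 (Pearson r = 0.999), Mog (0.998) and Opalin (0.998), the last pair known as myelin genes, over 15440 genes with a mean of at least 1 CPM. Ttr ran with Slc13a4 (0.965), Tmem72 (0.926) and Clic6 (0.91), all high in choroid plexus, the latter pair being markers on the list above. Slc7a8 ran with Fbxl5 (0.991), Pid1 (0.986) and Rab40b (0.984), and Slc3a2 with Ubb (0.992), Fcgr3 (0.989) and Itgb2 (0.98). For Slc7a5 these were Foxj3, Lsamp and 2310035C23Rik (0.974 to 0.971), for Slc16a10 Prkcq (0.917), Pcyt1b (0.906) and Myh10 (0.903), and for Crym Sipa1l1 (0.881), Ephx4 (0.875) and Limch1 (0.868).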

How the data were processed

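RNA-Seq of hypothalamus, pituitary and thyroid from 3 WT and 3 K146Q mice was read from 1 table per tissue of 24054 rows. Per the submitters' notes, bcl2fastq 2.17, Bowtie2 2.1.0 and RSEM 1.2.15 were used with build mm10; annotation and strand setting are not given in the sources used here. The paper's methods describe RNA-Seq collection for pituitary and hypothalamus only. The deposited values are a normalized signal in CPM of the library size times a normalization factor, and the product of the 18 factors was 1, as in 1 joint normalization. The authors' fold changes, averages, p-values and FDR in the same tables were not used. All 432972 values (100%) were whole multiples of the worth of 1 read within 0.1 reads. The lowest chi-square per degree of freedom between replicates was 6.12, so none was counted as a duplicate.

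Groups came from titles. Within a tissue, limma 3.58.1 (R 4.3.3) with a variance trend was fitted to log2(CPM + 0.5) of its 6 libraries for genes that reached 0.5 CPM in 3 or more of them. Tissues and genotype effects between tissues were compared in 1 fit of 18 libraries. p-values were Benjamini-Hochberg adjusted over all genes tested. edgeR 4.0.16 and DESeq2 1.42.0 on the recovered reads and other scalings, filters and left-out mice were alternatives. Mouse numbers recur across tissues, each number being read as 1 mouse; same-mouse deviations correlated at -0.027 to 0.174, with 3 of 18 pairs over 0.1, and a fit with the number as block was run. Gene lengths and positions came from GENCODE M21 (GRCm38) and promoters from RefSeq (GRCm38.p6). The scripts were tested on simulated data. Members, gene lists and tests were chosen with earlier results of these data known. Context genes were mostly named, for each list, from up to 4 with the largest absolute log2 fold change among those called. Not all genes that met this rule are named. Others that were not called, such as Folr1 and Kcnj13 in hypothalamus and Ddit3 and Trib3 in thyroid, were named for their pattern over the libraries. For each member, the 3 genes of highest correlation were named.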

Additional observations from a re-analysis of the deposited data

Results flagged for a closer look

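The genotype effects below were compared between tissues in the 18-library limma fit, as a test of the difference itself (log2 differences of K146Q over WT between 2 tissues). These comparisons share libraries.

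For Slc7a8 all 3 differences were called. The effect in pituitary exceeded that in hypothalamus by 1.34 (SE 0.19, adjusted p = 5.87e-04, where 3.24% of 17140 genes were called), that in thyroid was below pituitary by -2.13 (adjusted p = 3.19e-07; 33.8% of genes) and below hypothalamus by -0.79 (adjusted p = 0.00450; 30.8% of genes). LAT2 RNA was higher in all 3 K146Q pituitaries and lower in all 3 K146Q thyroids than in any WT library of the tissue, and no alternative changed these calls.

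Slc16a10 had a more negative effect in thyroid than in pituitary (-0.97, adjusted p = 0.0109) and hypothalamus (-1.24, adjusted p = 0.00218). The former was lost without mouse 2 (-0.84, adjusted p = 0.0520), 43 (-0.86, adjusted p = 0.0557) or 62 (-0.70, adjusted p = 0.0857). The effect on Crym was larger in thyroid than in pituitary by 1.46 (adjusted p = 0.0160), a call lost without mouse 1 (1.26, adjusted p = 0.0596) or 62 (1.38, adjusted p = 0.0686).

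Between thyroid and hypothalamus, the difference was 0.64 for Slc3a2 (adjusted p = 0.0180) and -0.93 for Slc7a5 (adjusted p = 0.0363). Both were lost without mouse 60 (0.63, adjusted p = 0.0612, and -0.88, adjusted p = 0.122) or 62 (0.63, adjusted p = 0.0816, and -0.75, adjusted p = 0.189), the former also without mouse 83 (0.65, adjusted p = 0.0527) and the latter without mouse 1 (-0.49, adjusted p = 0.0640), with no filter (-0.93, adjusted p = 0.0503) and with no variance trend (-0.93, adjusted p = 0.0521). For Slc3a2 the effect in pituitary was not shown to differ from that in hypothalamus (0.57, adjusted p = 0.140).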

How the results depend on the processing

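Of 958 member values under alternatives, 898 kept direction and side of the threshold, 27 lost the call, 14 gained it and 19 changed sign, none of them a called value. Changes of sign were Slc16a10 in hypothalamus with the choroid covariate (0.022) and left-out mice (-0.078 to 0.079), Slc7a5 (-0.0095 to 0.11) and Slc3a2 (-0.045 to 0.01) in hypothalamus with left-out mice, WT pituitary against hypothalamus for Slc3a2 with quantile normalization (0.078) or totals without the 10 highest genes (0.074) and for Slc16a10 with the latter (0.021), and WT thyroid against hypothalamus for Slc16a10 (-0.0072 to 0.45). Among effects between tissues they were Slc3a2 thyroid minus pituitary with quantile normalization (-0.075) and left-out mice (-0.13 to 0.23), Slco1c1 thyroid minus hypothalamus with a pseudocount of 0.1 (0.023) and left-out mice (-0.28 to 0.10), and pituitary minus hypothalamus for Ttr (-1.23 to 1.88) and Slc7a5 (-0.15 to 0.0029). The cause was not tested.

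Genes called in hypothalamus were 9 with DESeq2, 2 with all 18 libraries and 0 to 6 with left-out mice. Left-out mice gave 620 to 1337 genes in pituitary, 3601 to 5097 genes and 2 to 5 members in thyroid, where Crym drops below the filter. At least 1 CPM in every library left 4 members to test, of which 2 were called between WT pituitary and hypothalamus and 3 between WT thyroid and hypothalamus, and 343 genes for the effect pituitary minus hypothalamus. That effect gave 228 to 446 genes and 1 to 2 members with left-out mice, thyroid minus pituitary 1 to 3 members, and thyroid minus hypothalamus 3476 to 4680 genes and 2 to 4 members. With mouse number as a replicate block, no member call changed. No paired analysis was possible because each mouse has 1 genotype (K146Q against WT in 1 tissue). Depth limits Crym and Ttr in thyroid and Slco1c1 outside hypothalamus, where WT libraries had 19 reads or fewer.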
